A study of Mus musculus with 45 samples.

Results

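The genes described here are 5 signal transducers and activators of transcription, Stat2, Stat3, Stat5a, Stat5b and Stat6, and the 4 Janus kinases, Jak1, Jak2, Jak3 and Tyk2. The rule names them by symbol, and 9 of 9 were found among the 29307 genes of the deposited count table. All 9 also passed the filter on low counts that left 12905 genes for testing. RNA was sequenced from bone marrow-derived macrophages of 15 C57BL/6N mice aged 6 to 10 weeks, after 6 days of culture with M-CSF. Each mouse gave 3 libraries. M0 macrophages were left unpolarized, M1 macrophages received 50 ng/mL IFN-γ with 20 ng/mL LPS for 24 h, and M2 macrophages received 20 ng/mL IL-4 for 24 h. The mice carried Famin p.254I, Famin p.254V or Famin p.284R, 5 mice each. FAMIN, encoded by Lacc1, is a purine enzyme, p.254V is a common disease risk variant, and p.284R is a loss-of-function variant. The variants are in the germline, so every cell of a mouse carried them. The comparisons ask how far the STAT and JAK transcripts moved with the polarizing cytokines, and whether they differed with Famin genotype.

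Cytokine receptors of this pathway have no kinase activity of their own. A receptor binds a pair of Janus kinases, ligand binding brings these together, and the kinases phosphorylate the receptor and the STAT protein recruited to it, which then dimerizes and enters the nucleus. In macrophages IFN-γ signals through JAK1 and JAK2, type I interferon through JAK1 and TYK2 to the ISGF3 complex that contains STAT2 and IRF9, IL-10 through JAK1 and TYK2 to STAT3, and IL-4 through JAK1 with JAK3 or other kinases to STAT6. Phosphorylation is the main control of these proteins. The data here are mRNA levels, which do not show it.

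Total counts ranged from 17239009 to 43740283 per library, with a median of 27553642. The lowest count of any of the 9 genes in any library was 443, for Stat5a in M1. Levels are given as CPM, counts relative to a library size scaled by TMM, and as RPKM, per kilobase of exon, wherever genes are set against each other. Of 7 macrophage genes, Csf1r, the M-CSF receptor, had 1471 CPM or more in every library. The 7 summed to medians of 27880 CPM in M0, 11960 in M1 and 11710 in M2. Fcgr1 had medians of 346.9, 1203 and 46.57 CPM in M0, M1 and M2, and Mertk 207.5, 202.7 and 75.52 CPM. M1 libraries held Cxcl9 at a median of 3262 CPM and Nos2 at 19.7 CPM, but Il12b stayed under 1 CPM in every library. Markers of T cells (5), NK cells (4), basophils or mast cells (4) and erythroid cells (3) each summed to at most 1.27 CPM, and 4 of 5 B cell markers were under 1 CPM in every library, all but Cd79b. The 5 neutrophil markers summed to between 12.7 and 196 CPM and the 4 dendritic cell markers to between 0.459 and 12.9 CPM. The 4 fibroblast markers summed to between 15.7 and 84.6 CPM in M0, 6.32 and 19.8 CPM in M1, and 8.88 and 30.6 CPM in M2. A part of other cells in the results was not tested, and in bulk RNA fewer cells of a type and less RNA per cell cannot be told apart. Lacc1 itself was present in all 3 genotypes, with medians of 170, 171 and 119 CPM in 254I, 254V and 284R M0 macrophages. In M1 it had 486 to 523 CPM in 254I, 533 to 597 CPM in 254V and 218 to 584 CPM in 284R, where the spread was widest. Since the alleles differ in the encoded protein its level does not check the labels.

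A pair of mice stood apart. In 254I mouse 4, the M0 library held 6741 CPM summed over 16 type I interferon target genes, against 768 to 2138 CPM in the other 14 M0 libraries. Its M2 library held 1305 CPM, against 273 to 920 CPM in the others, and its M1 library, at 10890 CPM, lay inside the range of the others. In 254I mouse 5, the M1 library held 49.1 CPM of Retnla and 40.8 CPM of Arg1, genes induced by IL-4. The other 14 M1 libraries held at most 0.249 and 0.912 CPM, and M2 libraries had medians of 3279 and 1030 CPM. In 254I mouse 4 the M0 values of Stat3, Stat6, Jak3 and Tyk2 were also the highest of the 15, as were the M2 values of Stat3, Stat6, Jak2 and Tyk2. Its Stat6 had 391 CPM in M0, against at most 345 in the others, its Jak3 54.1 against at most 43.3, and its Tyk2 146 against at most 125. In M1 its Stat6 was the highest as well, at 332 CPM against at most 328.8 in the others. Its Jak1 in M0, at 269.7 CPM, was low and exceeded only 2 of the other 14. Leaving out 254I mouse 5 changed no call among the 9 genes, and results that rest on 254I mouse 4 are given with and without it.

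The promoters are shown because 4 of the genes rose by at least 1 on the log2 scale in M1 macrophages. These are the 250 bases before the RefSeq start of each (GRCm38.p6), 5′ to 3′ on the strand of the gene. For Stat2, Tyk2 and Jak2 no transcript start of the GENCODE annotation directly follows the window, so positions rest on the RefSeq start. Capitals mark matches to any of 4 motifs searched on both strands: TTCNNNGAA, the gamma-activated site, the wider STAT6 site, TTC and GAA with 4 bases between them, the core of the interferon-stimulated response element, GAAA and GAAA with 2 bases between them, and an NF-κB-like motif, GGGA and CC with 4 bases between them.
Stat2, chr10:128270248-128270497, plus strand: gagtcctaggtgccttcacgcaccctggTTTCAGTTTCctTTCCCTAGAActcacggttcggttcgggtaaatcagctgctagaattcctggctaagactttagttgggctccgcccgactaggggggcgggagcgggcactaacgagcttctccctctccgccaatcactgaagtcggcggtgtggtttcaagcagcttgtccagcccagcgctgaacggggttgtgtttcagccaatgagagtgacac
Stat3, chr11:100939541-100939790, minus strand: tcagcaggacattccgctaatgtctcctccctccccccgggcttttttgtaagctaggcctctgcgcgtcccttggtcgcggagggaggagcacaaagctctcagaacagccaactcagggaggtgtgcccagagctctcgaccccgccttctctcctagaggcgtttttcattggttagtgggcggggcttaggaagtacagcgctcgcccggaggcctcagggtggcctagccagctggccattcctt
Tyk2, chr9:21131276-21131525, minus strand: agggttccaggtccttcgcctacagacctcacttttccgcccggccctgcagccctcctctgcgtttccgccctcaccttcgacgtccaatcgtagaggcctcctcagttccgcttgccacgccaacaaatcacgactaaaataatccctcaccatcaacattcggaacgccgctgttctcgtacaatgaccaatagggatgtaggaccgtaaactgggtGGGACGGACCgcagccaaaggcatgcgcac
Jak2, chr19:29251553-29251802, plus strand: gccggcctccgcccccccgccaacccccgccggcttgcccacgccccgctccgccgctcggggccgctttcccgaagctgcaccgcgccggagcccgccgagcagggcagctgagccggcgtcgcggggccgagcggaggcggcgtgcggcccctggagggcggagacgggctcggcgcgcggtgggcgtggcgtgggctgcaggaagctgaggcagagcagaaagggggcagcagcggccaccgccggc
In the Stat2 window the first run of capitals is the interferon-stimulated response element read on the opposite strand, from position -222 to -213 counted from the start, and the second is the STAT6 site, from -210 to -201. They do not overlap. The capitals of the Tyk2 window are the NF-κB-like motif, which was also in the Stat6 window and in 1 of the 2 Stat5a windows. The first coordinate of the Tyk2 window was recorded both as 21131276, printed above, and as 21131226, so its location is less certain. The Stat3 and Jak2 windows held none of the 4 motifs, nor did those of Stat5b, Jak1 and Jak3. Of 32851 promoters of this length, 2.98% held the interferon-stimulated response element, 5.85% the STAT6 site, 7.02% the gamma-activated site and 17.6% the NF-κB-like motif. A match describes the letters and is not evidence of binding.

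The 5 STAT genes lie on 2 chromosomes. Stat6 (chr10:127642986-127660957) and Stat2 (chr10:128270559-128292849) lie 609.6 kb apart on the plus strand of chromosome 10, with 40 genes between them. Stat5b (chr11:100780731-100850724), Stat5a (chr11:100859351-100885169) and Stat3 (chr11:100885098-100939540) are consecutive on chromosome 11, with 8.6 kb between Stat5b and Stat5a. The ends of Stat5a and Stat3 overlap by 72 exonic bases on opposite strands. Whether strand was used in counting is not given in the sources used here, so reads in those 72 bases, which are 1.01% of the Stat5a exons, cannot be assigned to either gene. Stat5a and Stat5b also share 608 words of 50 bases, the read length, which are 8.21% of the words of Stat5a. Of the words of each gene, 10.98% of Stat5b, 7.52% of Tyk2 and 7.21% of Jak3 were shared with some other gene. The levels of these 4 genes are therefore less certain. The kinases are on separate chromosomes: Jak1 at chr4:101152367-101265282, Jak2 at chr19:29251828-29313080, Jak3 at chr8:71676296-71690575 and Tyk2 at chr9:21104068-21131243. Jak3 shares 404 exonic bases with Insl3 on the same strand and Tyk2 shares 554 with 1700084C06Rik on the opposite strand, both neighbors at medians under 1 CPM.

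**Figure D1:**
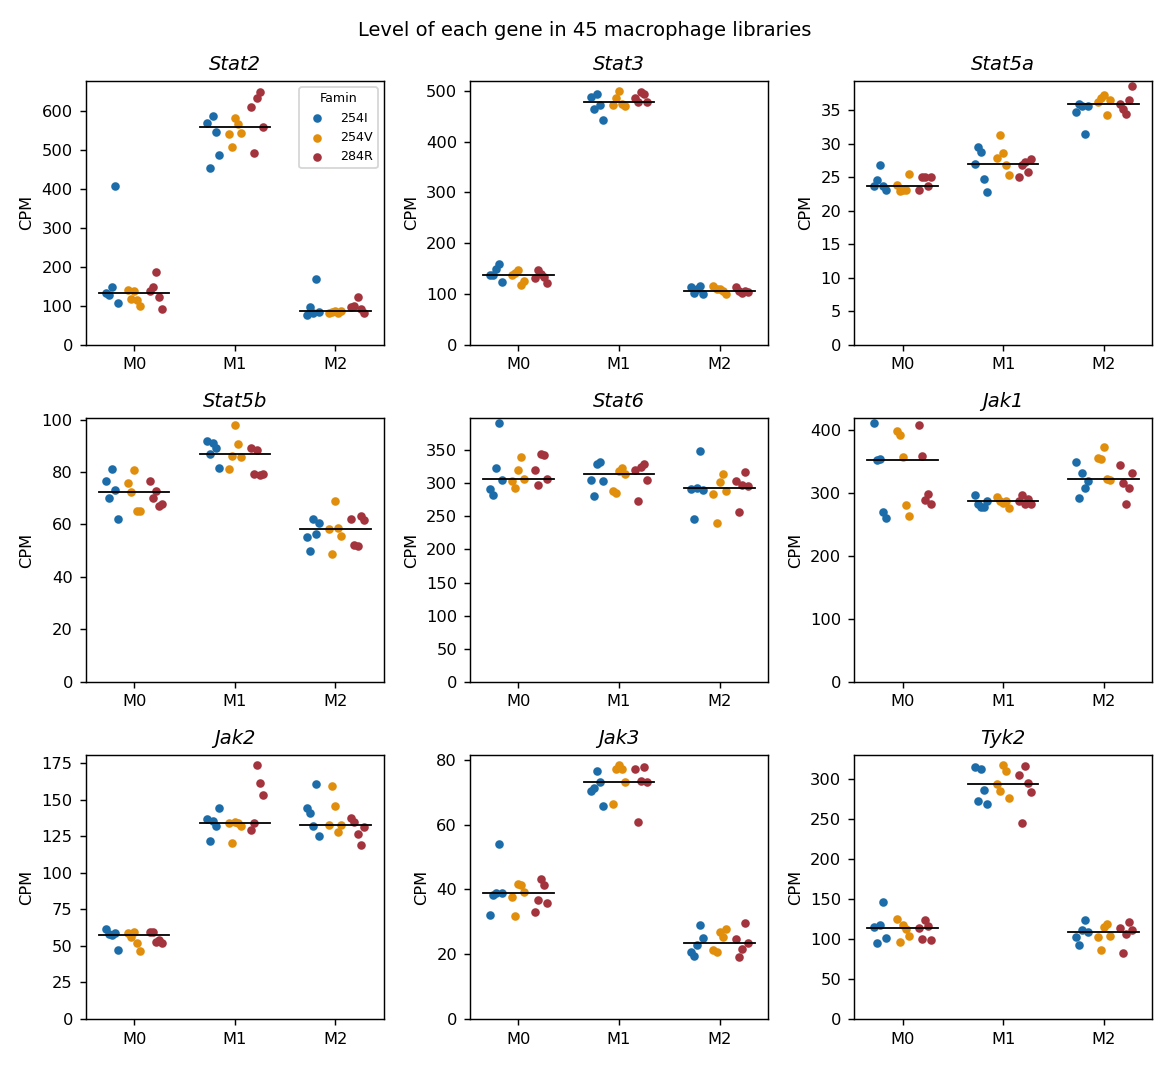
CPM (TMM-scaled, linear axis from 0) of each gene in the 45 libraries, with 1 point per library, colored by Famin genotype, and a line at the median of the 15 libraries of each polarization. Stat2, Stat3, Jak2, Jak3 and Tyk2 in M1 lie above every M0 library. The single high Stat2 point in M0, at 408 CPM, is 254I mouse 4.

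M1 polarization raised 7 of the 9 genes and lowered 1, at an adjusted p under 0.05 over all genes, which is a call here. Of all genes tested, 77.3% were called in M1 against M0, 37% higher and 40.3% lower, so a count of 8 called says little about these genes. Stat2, Stat3, Jak2 and Tyk2, 4 of the 9, rose by at least 1 on the log2 scale, against 8.3% of all genes. The median change of the 9 was 0.90, and that of all genes -0.03. M2 polarization raised 2, Jak2 and Stat5a, and lowered 5, where 36.8% of all genes were called higher and 39.6% lower (76.4% in all). Jak2 alone rose by at least 1, as did 6.18% of all genes, and the median change of the 9 was -0.13. In M1 against M2, 5 were higher and 2 lower, where 39% of all genes were called higher and 40.1% lower (79.1% in all). With libraries scaled to total counts in place of TMM, 6 of the 9 rose and 2 fell in M1, and 37.8% of all called genes were higher in place of 47.9%.

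**Figure D2:**
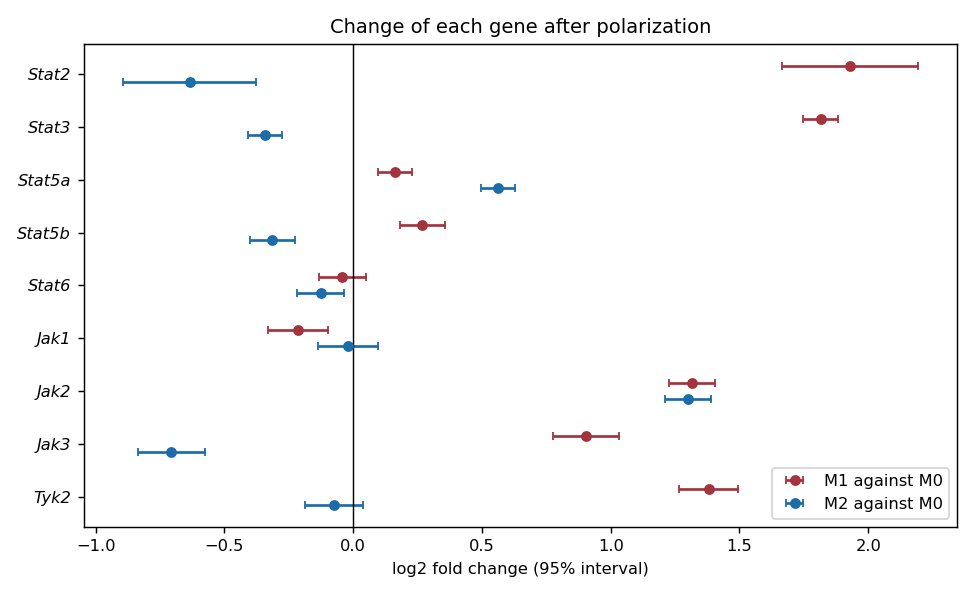
Fitted log2 fold change of each gene in M1 against M0 (red) and in M2 against M0 (blue), means over the 3 genotypes, with bars for the 95% interval and a line at no change. Jak2 is at 1.32 and 1.30, whereas Stat2, Stat3, Stat5b and Jak3 lie to the right of the line in M1 and to its left in M2.

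Stat2, the STAT of type I interferon signaling, had the largest fold change of the 9 genes in M1. It ran from 92.3 to 408 CPM in M0 with a median of 133, from 454 to 649 CPM in M1 with a median of 559.7, and from 76.7 to 169 CPM in M2 with a median of 85.9. No M1 library overlapped any M0 library. Stat2 rose in M1 by 1.93 on the log2 scale (SE 0.13, 3.81-fold, edgeR adjusted p = 2.91e-16), and was higher in 15 of 15 mice. In M2 it fell by 0.63 (SE 0.13, 1.55-fold, adjusted p = 4.2e-05), and was lower in 15 of 15 mice, although the ranges of M0 and M2 overlapped. The difference between M1 and M2 was 2.56 (SE 0.14, 5.91-fold).

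254I mouse 4 set the top of the Stat2 range in both M0 and M2. Its M0 library, at 408 CPM, lay above the other 14, which ran from 92.3 to 187 CPM, and its M2 library, at 169 CPM, above the others at 76.7 to 123 CPM. In M1 the same mouse had 547 CPM, inside the range of the others. Without this mouse the rise in M1 was 2.10 (SE 0.08) and the fall in M2 0.54 (log2 -0.54, SE 0.07, adjusted p = 3.21e-08). All 16 interferon targets had their highest M0 value in this mouse, and 12 of 16 their highest M2 value. Across libraries Stat2 was high where the summed targets were high. The part of interferon in the Stat2 level of this mouse was not tested.

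**Figure D3:**
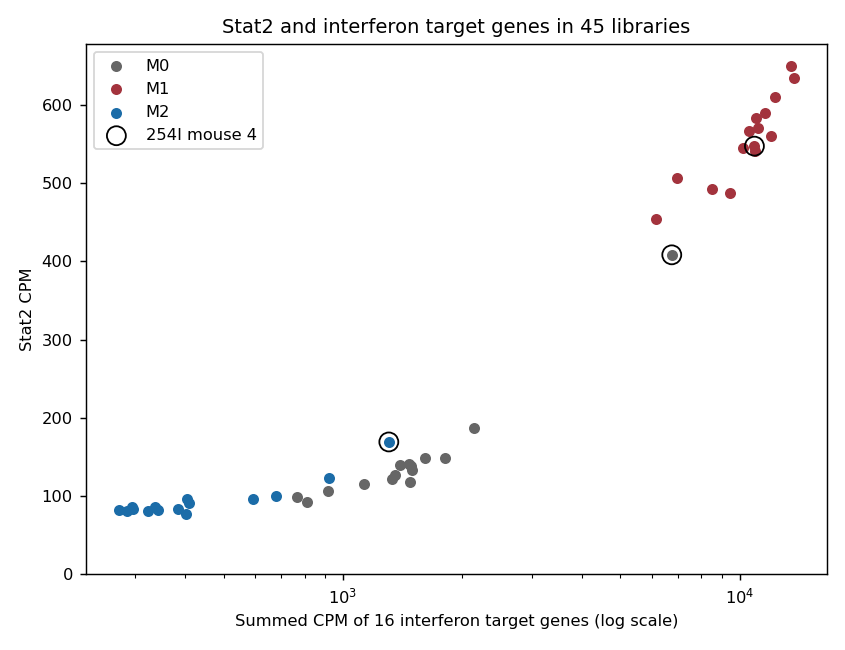
Stat2 CPM (linear axis from 0) against the summed CPM of 16 type I interferon target genes (log axis), with 1 point per library, colored by polarization, and rings around the 3 libraries of 254I mouse 4. The ringed M0 library, at 6741 summed CPM and 408 CPM of Stat2, lies between the other M0 libraries and the M1 libraries.

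Stat3, which serves IL-10 and IL-6 family cytokines, rose nearly as far and with much less spread. Its level was 118 to 159 CPM in M0, 442 to 499 CPM in M1 and 99.4 to 116 CPM in M2, with medians of 137, 479 and 107 CPM. The 3 ranges did not overlap. The rise in M1 was 1.82 (SE 0.04, 3.52-fold, adjusted p = 3.61e-35) and the fall in M2 was smaller, a log2 change of -0.34 (SE 0.03, 1.27-fold, adjusted p = 1.06e-11). Both directions held in 15 of 15 mice. In M1 the coefficient of variation within a genotype was as low as 1.80%.

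Stat6, the STAT of IL-4 signaling, moved by at most 1.09-fold in any of the 3 comparisons. It ran from 282 to 391 CPM in M0, from 273 to 332 CPM in M1 and from 240 to 349 CPM in M2, and the 3 ranges overlapped. M1 against M0 differed by -0.04 (95% interval -0.13 to 0.05, adjusted p = 0.418), and was called at -0.15 under scaling to total counts (adjusted p = 0.0105). In M2, where IL-4 was given, Stat6 fell slightly (log2 -0.13, SE 0.05, 1.09-fold, adjusted p = 0.0139). M1 exceeded M2 by 0.08 (95% interval -0.01 to 0.18, adjusted p = 0.0927), which became a call at 0.09 with the mouse as a block (adjusted p = 0.00175) and at 0.10 without 254I mouse 4 (adjusted p = 0.0315). M1 was the higher in 14 of 15 mice.

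Stat5a and Stat5b, close paralogs used by GM-CSF and other cytokines, moved apart in M2. Stat5a had 22.9 to 26.9 CPM in M0, 22.7 to 31.3 CPM in M1 and 31.5 to 38.6 CPM in M2, and each M2 library lay above each M0 and M1 library. Its rise in M2 was 0.56 (SE 0.03, 1.48-fold, adjusted p = 2.03e-18). Stat5b had 61.9 to 81.1 CPM in M0, 78.9 to 98.1 CPM in M1 and 48.8 to 69.0 CPM in M2. It fell in M2 (log2 -0.31, SE 0.04, 1.24-fold, adjusted p = 5.24e-08) in 15 of 15 mice. In M1 both rose, Stat5a by 0.16 (SE 0.03, 1.12-fold, adjusted p = 3.69e-05) and Stat5b by 0.27 (SE 0.04, 1.21-fold, adjusted p = 8.99e-07). The Stat5a rise in M1 was not called with libraries scaled to total counts, at 0.06 (adjusted p = 0.154).

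Per kilobase of exon, Stat5a made up 20.8% ± 1.46 of Stat5a plus Stat5b RPKM in M0 (SD, n = 15), 19.6% ± 1.41 in M1 and 32.6% ± 2.11 in M2. No M2 share, at 29.6% to 37.0%, overlapped an M0 share, at 18.2% to 23.3%. The share was 11.8 points higher in M2 than in M0, in 15 of 15 mice (two-sided exact sign-flip permutation test over mice, p = 6.1e-05, the smallest it can give, 9.2e-05 adjusted over 3 comparisons). In M1 it was lower than in M0 by a mean of 1.24 points (difference -1.24, higher in 3 of 15 mice, exact permutation p = 0.023). The M1 share was lower than the M2 share in 15 of 15 mice (difference -13.0 points, exact permutation p = 6.1e-05). The Benjamini-Hochberg adjusted p was 0.023 for M1 against M0 and 9.2e-05 for M1 against M2. The test takes the 15 mice as independent, although mice of the same replicate number varied together. By number the mean difference of M1 from M0 was -0.15, 0.27, -0.73, -2.16 and -3.45 points for numbers 1 to 5, so the lower M1 share was found mainly in the mice numbered 4 and 5. M2 exceeded M0 within each number, by 9.79 to 14.7 points. Over 5 numbers an exact test could give no p below 0.0625.

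**Figure D4:**
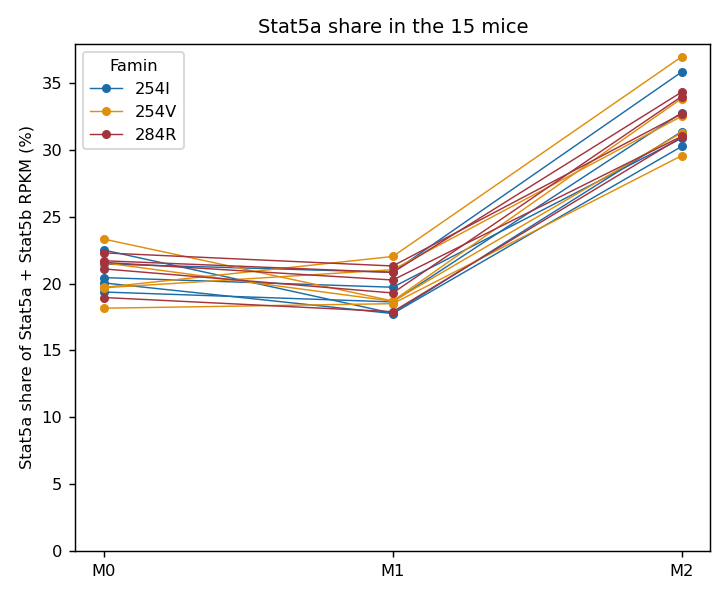
Stat5a as a percentage of Stat5a plus Stat5b RPKM (axis from 0) in M0, M1 and M2, with 1 line per mouse, colored by Famin genotype. Lines run down from M0 to M1 in 12 of 15 mice, the other 3 being 254V mice, and all end at 29.6% to 37.0% in M2.

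Among the kinases, Jak2, which serves the receptors of IFN-γ and GM-CSF, rose after both stimuli. It had 46.5 to 61.3 CPM in M0, 121 to 174 CPM in M1 and 119 to 161 CPM in M2, with medians of 57.5, 135 and 133 CPM. Each polarized library exceeded each M0 library. The rise was 1.32 in M1 (SE 0.05, 2.49-fold, adjusted p = 1.44e-26) and 1.30 in M2 (SE 0.05, 2.46-fold, adjusted p = 9.8e-26). Both changes are taken against the same M0 libraries. M1 against M2 differed by 0.02, with a 95% interval from -0.07 to 0.11 (adjusted p = 0.741), and M1 was the higher in 7 of 15 mice.

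Tyk2, the kinase shared by type I interferon, IL-10 and IL-12 receptors, rose in M1 and did not pass the test in M2. Its ranges were 95.5 to 146 CPM in M0, 245 to 318 CPM in M1 and 82.6 to 124 CPM in M2. The M1 range overlapped neither of the others. The rise was 1.38 (SE 0.06, 2.60-fold, adjusted p = 1.62e-23). M2 against M0 differed by -0.07 (95% interval -0.19 to 0.04, adjusted p = 0.244), a difference that was called at -0.14 under scaling to total counts (adjusted p = 0.041).

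Jak3, which pairs with the common gamma chain of the IL-4 receptor and others, moved in opposite directions. It had 31.8 to 54.1 CPM in M0, 60.8 to 78.5 CPM in M1 and 19.3 to 29.5 CPM in M2, and no 2 of these ranges overlapped. Jak3 rose in M1 by 0.90 (SE 0.07, 1.87-fold, adjusted p = 4.76e-16) and fell in M2 (log2 -0.71, SE 0.07, 1.63-fold, adjusted p = 1.75e-12), each in 15 of 15 mice. The difference between M1 and M2 was 1.61 (SE 0.07, 3.05-fold).

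Jak1, the kinase common to interferon, IL-4 and IL-10 receptors, was the least moved of the kinases. It ran from 261 to 412 CPM in M0, from 276 to 298 CPM in M1 and from 282 to 374 CPM in M2. The M0 range was wide and contained the whole M1 range. Jak1 fell in M1 (log2 -0.21, SE 0.06, 1.16-fold, adjusted p = 0.00122), although 4 of 15 mice were higher. M2 against M0 differed by -0.02 (95% interval -0.14 to 0.10, adjusted p = 0.758).

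The spread of Jak1 in M0 followed the replicate number of the labels, which runs from 1 to 5 in each genotype and whose meaning is not stated. The 3 mice numbered 1 had 398 to 412 CPM in M0 and those numbered 2 had 353 to 392 CPM. The mice numbered 4 had 269.7 to 299.5 CPM and those numbered 5 had 261 to 284 CPM. The number accounted for 89.0% of the variance of Jak1 in M0 and genotype for 0.6%. Within number 1 the mean log2 ratio of M1 to M0 was -0.47, and it was -0.35, -0.24, 0.01 and 0.07 within numbers 2 to 5. The fall in M1 was thus found in the mice numbered 1, 2 and 3 (0 of 3 higher in each) and not in those numbered 4 and 5 (2 of 3 higher in each). For M2 against M0 the mean log2 ratio was -0.215 and -0.20 within numbers 1 and 2 (0 of 3 higher in each). It was -0.02 within number 3, and 0.15 and 0.27 within numbers 4 and 5 (3 of 3 higher in each). The fitted M2 difference near 0 therefore averages over opposite directions. Between M1 and M2 each number gave a mean ratio below 0, from -0.26 to -0.14, and the fitted difference was -0.19 (SE 0.06, adjusted p = 0.00302).

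Other genes varied with the number as well, most of all Stat6 and Tyk2 in M2. It accounted for 90.7% of the variance of Stat6 in M2 and 90.5% of that of Tyk2. In M0 its share was 78.2% for Stat5b, 76.1% for Jak2 and 63.3% for Jak3, and it was 19.6% for Jak2 in M2. For Jak1 it was 44.1% in M1 and 25.2% in M2. By chance alone, 5 numbers over 15 libraries take up part of the variance, and more than 3 genotypes do. In M2 the mice numbered 2 had 240 to 256 CPM of Stat6 and 82.6 to 92.1 CPM of Tyk2, the lowest of each gene, and those numbered 4 had 314 to 349 CPM and 119 to 124 CPM, the highest. After subtraction of group means, log2 CPM of Stat6 and Tyk2 correlated with r = 0.85 over 45 libraries, that of Stat6 and Jak3 with r = 0.81, and that of Jak3 and Tyk2 with r = 0.74. Without 254I mouse 4 these were 0.82, 0.73 and 0.66 over 42 libraries. Stat2 and Stat6 correlated with r = 0.58 with this mouse and 0.21 without it. The points share mice, replicate numbers and libraries, so these values are a description.

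Set against each other per kilobase, the 9 genes changed places with polarization. The length used was that of all annotated exons, 9527 bases over 14 transcripts for Stat3 and 5539 over 3 for Stat5b. The order within a polarization depends on this choice of length. In M0 the order of median RPKM was Stat6 at 69.7, Jak1 at 48.9, Stat2 at 22.5, Tyk2 at 16.6, Stat3 at 14.4, Stat5b at 13.1, Jak2 at 11.4, Jak3 at 7.25 and Stat5a at 3.33. In M0, Stat6 was above Jak1 and Jak3 above Stat5a with no overlap, whereas the ranges of the other neighbors overlapped. In M1 Stat2 led at 94.5 RPKM, with no overlap with Stat6 at 71.4, followed by Stat3 at 50.3 and Tyk2 at 42.7. Tyk2 and Jak1 (39.7) overlapped in M1, as did Stat5b (15.7) and Jak3 (13.7). In M2 Stat6 at 66.6 and Jak1 at 44.6 led again and Jak2 was the third at 26.5. Of the lower genes in M2, Tyk2 (15.8) overlapped Stat2 (14.5), Stat3 (11.2) overlapped Stat5b (10.5), and Stat5a (5.03) overlapped Jak3 (4.38), which was the last.

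Genes around the pathway were read from 8 lists of textbook members, chosen with earlier results of these data known. A gene may stand more than once on these lists. Each is set beside the medians of all genes, -0.03 in both M1 and M2 against M0, and each count is to be read against the share of all genes called, 37% higher and 40.3% lower in M1, and 36.8% higher and 39.6% lower in M2. Of 18 ligands, 8 had enough counts for the test, and 5 rose and 1 fell in M1 (median log2 change 0.79), led by Il27, from a median of 0.615 to 17.7 CPM (log2 4.72), Il15 (1.07) and Il7 (1.01). In M2, 2 ligands rose and 5 fell (median -0.97). Il10, an inhibitory cytokine, fell from 4.02 to 0.608 CPM (log2 -2.65) and Osm by a log2 change of -1.59, whereas Csf1, the gene of M-CSF, rose from 13.3 to 36.0 CPM (log2 1.59).

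Of 26 receptor genes tested, 11 rose and 8 fell in M1 (median 0.08), and 8 rose and 14 fell in M2 (median -0.15). Il12rb1, the IL-12 receptor chain that binds TYK2, rose in M1 from 1.22 to 259 CPM (log2 7.68), and Il15ra from 4.39 to 31.2 CPM (log2 2.91). Il7r fell from 293 to 28.3 CPM (log2 -3.38). In M2 Il27ra rose from 6.86 to 26.3 CPM, and Il6st, the gp130 chain that uses JAK1 and STAT3, from 346 to 931 CPM (log2 1.42). Il2ra fell in M2, from 0.154 to 0.0382 CPM (log2 -1.42, SE 0.34), at levels under 1 CPM.

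Of 19 inhibitors, 11 rose and 4 fell in M1 (median 0.12), and 8 rose and 6 fell in M2 (median 0.09). Socs1, which blocks JAK activity, rose after both stimuli, from a median of 1.07 CPM in M0 to 182 in M1 (log2 7.33) and 39.8 in M2 (log2 5.15). Socs3, the inhibitor of gp130 signaling, rose in M1 from 1.63 to 23.1 CPM (log2 3.82), and Usp18, the inhibitor of the type I interferon receptor, from 27.9 to 203 CPM (log2 2.80). Cish and Socs2, both STAT5 targets as well, rose in M2 from 0.747 to 70.1 CPM (log2 6.41) and from 0.677 to 41.9 CPM (log2 5.83). Among 10 adaptors and partners, 3 rose and 2 fell in M1 and 2 rose and 3 fell in M2. Nmi, a STAT-binding protein, rose in M1 (log2 1.79), Ndufa13, which binds STAT3, rose in both (0.52 and 0.81), and Sh2b2, an adaptor of JAK2, fell in M1 (-0.66) and rose in M2 (0.89). Irf9, the partner of STAT2 in ISGF3, had medians of 80.6 CPM in M0, 111 in M1 and 52.2 in M2, and fell in M2 (log2 -0.57, SE 0.07, adjusted p = 7.09e-09), where Stat2 fell too.

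Target genes of the STAT proteins were read in the same way. The 16 type I interferon targets all rose in M1 and all fell in M2 (16 of 16 each, medians 2.29 and -1.78). Without 254I mouse 5, 15 rose in M1, and without 254I mouse 4, 15 fell in M2. Ifit2 had medians of 192 CPM in M0, 2600 in M1 and 17.0 in M2. Ifi44 rose in M1 from 18.7 to 381 CPM (log2 3.97), Oasl1 from 22.1 to 264 CPM (log2 3.43), and in M2 Ifit3 fell from 73.4 to 2.78 CPM (log2 -4.26) and Ifit1 from 54.6 to 6.36 CPM (log2 -2.70). Of 14 IL-4 targets tested, 13 rose in M2 and none of the 14 fell. Arg1 went from a median of 0.276 to 1030 CPM and Retnla from 0.0991 to 3279 CPM, and Ccl17, with 0 counts in 14 of 15 M0 libraries, reached 1.85 CPM. In M1, 3 of the 14 rose, among them Pdcd1lg2 (log2 4.21), and 5 fell, among them Egr2 (-3.16) and Irf4 (-2.52). Without 254I mouse 5, whose M1 library was high in Arg1 and Retnla, 3 rose and 7 fell in M1, and the median of the 14 was -0.81 in place of -0.28.

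Targets of STAT3 and STAT5 moved in both directions. Of 10 STAT3 targets, 5 rose and 3 fell in M1 (median 0.57) and 3 rose and 5 fell in M2 (median -0.38). Il4ra, the IL-4 receptor chain, rose in M1 from 151 to 503 CPM (log2 1.85), and Myc fell in M1 (-1.86) and rose in M2 (1.93). Nfil3 (2.69) and Etv3 (1.06) rose in M2. Of 9 STAT5 targets, 3 rose and 2 fell in M1 (median 0.01), and 3 rose and 3 fell in M2 (median 0.07). Ccnd2, a cyclin, rose in M1 from 4.57 to 49.0 CPM (log2 3.17), and Pim1 from 46.7 to 157 CPM (log2 1.79), whereas Socs2 fell (log2 -2.12).

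The genes most like each member over the 45 libraries, by Pearson's r of log2 CPM among 8395 other genes, were named without a test. For Stat2 they were Adar (r = 0.996) and Dhx58 (0.995), for Stat3 Igtp (0.996) and Ppt1 (0.994), and for Tyk2 Tmem173 (0.989) and Gm12185 (0.987). For Jak3 they were Atxn7l1 (0.989) and Nod2 (0.983), and for Jak2 Rasgrp1 (0.980) and Ppargc1b (0.975). Stat5b was most like Nfatc1 (0.955) and Akna (0.951), Stat5a like Limk1 (0.944) and Sept9 (0.943), Stat6 like Fam120b (0.913) and Inppl1 (0.842), and Jak1 like Tnks (0.895). The values rest mainly on the differences between the 3 polarizations, and the highest were those of the genes that moved most.

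Between Famin genotypes none of the 9 genes was called. This held in 18 comparisons: each pair of genotypes averaged over polarizations, within M0, M1 and M2, and as a change of the difference from M0. Of the 162 values, 5 had an unadjusted p under 0.05 by edgeR, and 0 had an adjusted p under 0.05. Among all genes 0.0155% were called for 284R against 254I, 0.0155% for 254V against 254I and 0% for 284R against 254V (607 genes at an unadjusted p under 0.05). These counts of 2, 2 and 0 genes ran from 0 to 78, 0 to 5 and 0 to 75 over the alternatives, with 78 and 75 reached with the replicate number as a block. Averaged over polarizations, the 24 values of the genes other than Stat2 ran from -0.05 to 0.05, with 95% intervals inside -0.17 and 0.17. The fit took the 3 libraries of a mouse as independent. They correlated, so the intervals of averaged genotype differences can be too narrow. With counts summed per mouse, none of the 9 genes was called in any averaged comparison.

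**Figure D5:**
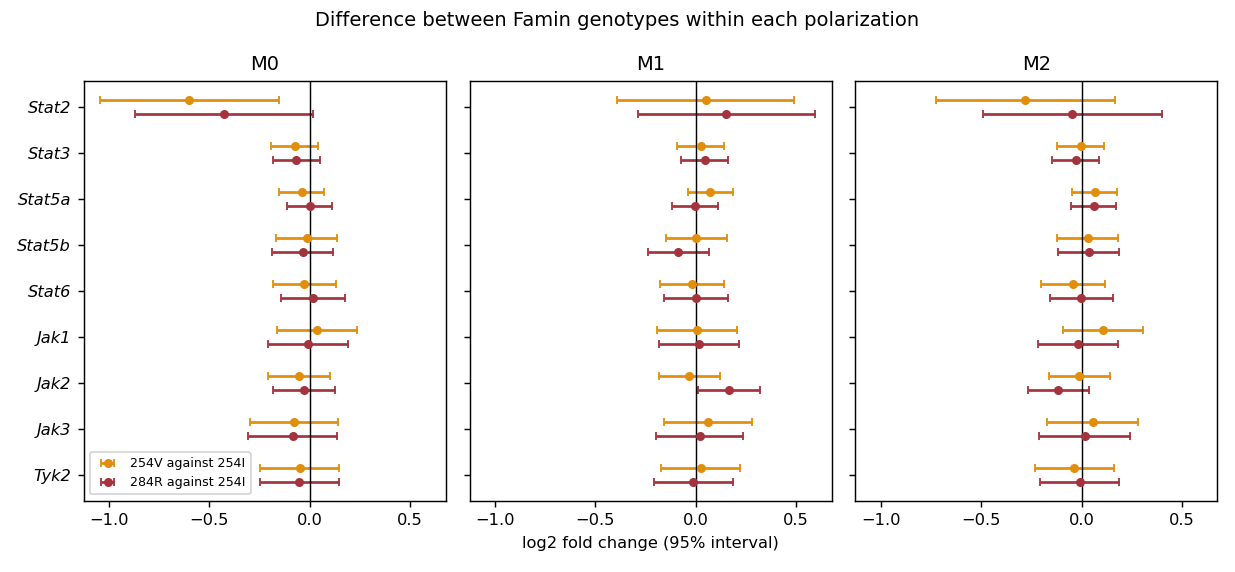
Fitted log2 fold change of each gene in 254V against 254I (orange) and 284R against 254I (red) within M0, M1 and M2, with bars for the 95% interval and a line at no difference. Stat2 in M0 is the farthest from 0, at -0.60 and -0.43, and without 254I mouse 4 these values are -0.08 and 0.09.

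The lowest unadjusted p values of edgeR were those of Stat2 and Jak2. Stat2 was lower in 254V than in 254I M0 macrophages (log2 -0.60, SE 0.23, unadjusted p = 0.0118, edgeR adjusted p = 1). The M0 values were 133, 127, 149, 408 and 107 CPM in 254I mice 1 to 5, and 141, 118, 139, 115 and 98.6 CPM in 254V mice, so the groups overlapped. Without 254I mouse 4 the Stat2 difference was -0.08 (SE 0.13). Averaged over polarizations the difference of Stat2 was -0.28 (SE 0.13, unadjusted p = 0.0411), and -0.01 without that mouse. Stat2 in 284R M0 macrophages had 139, 148, 187, 122 and 92.3 CPM.

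In M1, Jak2 had 137, 122, 136, 132 and 145 CPM in 254I mice 1 to 5, 134, 121, 135, 134 and 132 CPM in 254V mice, and 129.5, 134, 174, 162 and 153 CPM in 284R mice. The 284R mice numbered 3, 4 and 5 had the highest values of Jak2 in M1 and the other 2 lay inside the range of the other genotypes. Jak2 differed by 0.20 between 284R and 254V (SE 0.08, unadjusted p = 0.0152, edgeR adjusted p = 0.655) and by 0.17 between 284R and 254I (SE 0.08, unadjusted p = 0.0384, adjusted p = 0.695). With the replicate number as a block the first was 0.19 (adjusted p = 0.0978). Within M1, 0.263% of all genes were called for 284R against 254I and 0.0775% for 284R against 254V, and within M2 0.00775% for 284R against 254I. The M1 shares are 34 and 10 genes, which a block for replicate number turned into 343 and 325, none of them among the 9. Leaving out 284R mouse 5 gave 0 and 0, and leaving out 284R mouse 2 gave 109 and 65. The changes of Jak2 differences from M0 to M1 were not called either, at 0.20 (SE 0.11) for 284R against 254I.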

How the data were processed

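The authors deposited raw counts per Ensembl gene, without normalization, and a table of CPM for fewer genes. Reads recovered from the CPM table were whole, within 0.01 read, and equal to the counts for 100% of values, so the counts were used. Per the labels and methods, stranded mRNA libraries (1x50 bp) were trimmed with Trim Galore and aligned to mm10 with HISAT2. The series text names STAR and Cutadapt instead. The counting tool, its annotation and its use of strand are not given in the sources used here.

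Genes were kept with filterByExpr over the 9 groups (12905 genes), scaled by TMM and fitted with edgeR 4.0.16 in R 4.3.3 (glmQLFit, robust, 9 groups, all 45 libraries, no block). Benjamini-Hochberg adjustment covered all genes tested. Polarizations were averaged over genotypes and genotypes over polarizations. Intervals are 95%. RPKM used the exon union of GENCODE vM21. Libraries of the same genotype and number were taken as cultures of a single mouse, and their deviations from the group means correlated over 0.1 in 12, 15 and 9 of 15 mice (M0 with M1, M0 with M2, M1 with M2). Across genotypes, libraries of the same number, whose meaning is not stated, did so in 14, 15 and 13 of 15 pairs in M0, M1 and M2. Alternatives used DESeq2 1.42.0 and limma 3.58.1.

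The 9 genes, the lists and the tests were chosen with earlier results of these data known. From each list, up to 3 called genes with the largest change per comparison are named, and for each of the 9 genes the 2 most alike, of which 1 gene is not reported here.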

Additional observations from a re-analysis of the deposited data

Results flagged for a closer look

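In 81 groups of 5 libraries, 6 values of the 9 genes lay far from the other 4 of their group by Dixon's criterion, and chance gives such a value in about 1 in 20 groups. Stat2 in 254I mouse 4 was high in M0, at 408 CPM against 149 CPM for the next library, and in M2, at 169 CPM against 96.6 CPM. Stat5a in the M2 library of the same mouse was low, at 31.5 CPM against 34.7 CPM for the nearest. Jak2 was low in M1 of 254V mouse 2, at 121 CPM against 132 CPM, and in M0 of 254I mouse 5, at 47.3 CPM against 57.5 CPM. Jak3 was low in M1 of 284R mouse 2, at 60.8 CPM against 73.1 CPM. For no gene and comparison of polarizations did all mice of one genotype move one way and all mice of another the opposite way.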

How the results depend on the processing

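Among 675 values of the 9 genes for M1 against M0, M2 against M0 and M1 against M2 under 25 alternatives, 669 kept their call and 6 changed it, and no called value changed its direction. Scaling to total counts moved the median change of all genes in M1 against M0 from -0.03 to -0.13. It ended the call of Stat5a in M1 (0.06) and called Stat6 in M1 (-0.15) and Tyk2 in M2 (-0.14). The Stat6 difference between M1 and M2 was called at 0.09 with the replicate block by mouse, at 0.09 with mouse as a random block in limma-voom and at 0.10 without 254I mouse 4. Signs of uncalled values changed in 10 cases, for Jak1 in M2 and for Jak2 between M1 and M2. The number of the 9 genes called was 8 under each alternative for M1 against M0, and 7 or 8 for the others. No genotype value was called under any alternative, among them the replicate block, and the lowest adjusted p was 0.0978, for Jak2. In all, 309 of 3888 such values changed sign. The reads recovered from the CPM table were added as an alternative after seeing the data. The Stat5a shares kept their direction and their side of 0.05 with reads in place of RPKM, without pairing and without each mouse in turn. The 34 and 10 genes called within M1 for 284R against 254I and 254V became 343 and 325 with the replicate block by number, and ran from 0 to 109 and 0 to 65 without each mouse in turn. Counts of list genes without 254I mouse 4 or 5 were added after seeing the data. The unknown meaning of the replicate number, the unknown use of strand and the reads shared by Stat5a and Stat5b are limits.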
